A study of Mus musculus with 2 samples.

Results

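The cytochrome P450 genes of families 1 to 4 were read in single epithelial cells of the fetal mouse small intestine. They were taken by symbol alone, as the columns named Cyp, a family digit from 1 to 4, a subfamily letter and a number, and 44 of the 25663 gene columns matched. Family 2 gave 28 of them, family 3 gave 3 and family 4 gave 13, while family 1 had 0 matching columns. A member was counted as detected when its mean over all rows (cells) of the table was at least 0.01, and 22 of the 44 were.

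The study compared a Control library with a Tet3 knockout library, 1 of each, both made from sorted intestinal epithelium of C57BL6/J embryos at embryonic day 18.5. Each library was a pool of cells from 2 embryos, called wild-type or knockout in the protocol, fixed in 90% methanol and read by droplet sequencing of transcript 3' ends. Tet3 oxidises 5-methylcytosine in DNA. The knockout was made in stem cells of embryos from a first-generation cross of C57BL6/J with C3H/HeJ, where Cre cut out exon 5 and left a premature stop codon in exon 6, so that the loss is not limited to the gut. The mice were then backcrossed to C57BL6/JRccHsd for at least 5 generations.

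Cytochrome P450 enzymes hold a haem group and use electrons passed on by P450 reductase or cytochrome b5 to put an oxygen atom into fats, steroids, bile acids, drugs and plant compounds. The gut epithelium is, after the liver, a main site of such first-pass metabolism. The families 1 to 3 hold most drug-metabolising members, while family 4 is known for the omega-hydroxylation of fatty acids and eicosanoids, and the Cyp2c and Cyp2j subfamilies for epoxygenation of arachidonic acid.

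The table held 11871 cells, each scaled by the authors to a total of 10000 (CP10K). By the ending of the barcode, 5933 cells form what is here named set 0 and 5938 form set 1. No label ties an ending to a genotype, so Control and Tet3 knockout were not compared here, and all values are descriptions without a test. Set 1 is given without the 818 cells whose barcode set 0 also carried, which leaves 5120. Recovered depth was 1153 to 250630 transcript tags (unique molecular identifiers, UMIs) per cell, with a median of 23657 in set 0 and 22374 in set 1. Tet3 itself averaged 0.333 CP10K in set 0 and 0.218 in set 1, which does not check the labels, since 3' tags lie outside the deleted exon. The hepatocyte markers Alb (0.000359 and 0.000497 CP10K) and Hamp (0.000202 and 0.000108) were near 0 in both sets. The other 5 of the 7 hepatocyte columns were above 0.01 CP10K: Ttr (9.28 and 9.63), Cps1, a urea cycle gene that enterocytes also express (6.41 and 6.52), Serpina1a (0.415 and 0.814), Fgb (0.434 and 0.339) and Serpina1c (0.0199 and 0.0364).

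A small group of members carried most of the P450 signal. Summed over the 22 detected members, the mean level was 7.47 CP10K over all rows, 6.18 in set 0 and 9.16 in set 1. The 5 highest members made up 82.4% of it, 81.6% in set 0 and 83.1% in set 1. Levels here are 3' tag counts, with 1 tag per transcript and no division by length.

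Cyp2c68, in the Cyp2c cluster, was the highest at 1.57 CP10K over all rows (1.37 in set 0, 1.83 in set 1). Cyp2j6, a relative of the human arachidonic acid epoxygenase CYP2J2, followed at 1.45 CP10K (1.14 and 1.86). Cyp4f16, of the fatty acid and leukotriene hydroxylating subfamily, came next at 1.19 CP10K (0.829 and 1.66). All of these were higher in set 1. Cyp3a13, of the subfamily that metabolises many drugs, averaged 1.05 CP10K (0.941 and 1.19). Cyp2d26 averaged 0.893 CP10K (0.766 and 1.07). Cyp2c68 ranked 922 among all 25663 genes by its mean.

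Cyp4f13 stood between the leading members and the rest, at 0.401 CP10K (0.408 in set 0, 0.397 in set 1). Cyp2u1, a fatty acid hydroxylase, averaged 0.184 CP10K (0.197 and 0.164), and Cyp2c65 averaged 0.123 (0.0568 and 0.210). Next came Cyp2c23, an arachidonic acid epoxygenase, at 0.0841 CP10K, and Cyp2s1, known in barrier epithelia as an aryl hydrocarbon receptor target, at 0.0771. In set 0 the exact Poisson 95% intervals of the summed UMIs separated each neighbour in the order of that set down to Cyp2c23. There Cyp3a13 lay above Cyp4f16, and Cyp2c65 (0.0568 CP10K) below Cyp2c23 (0.0870). In set 1 the intervals overlapped for Cyp2j6, at 1.88 (1.85 to 1.90) UMIs per 10000, and Cyp2c68, at 1.86 (1.84 to 1.89). They separated the next neighbours of set 1 down to Cyp2u1, with Cyp2c65 above Cyp2u1. These intervals cover counting error only.

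The lower detected members lay between 0.0102 and 0.0715 CP10K. Cyp2c70, which makes muricholic acids in the mouse liver, averaged 0.0715 CP10K, Cyp4f40 0.0714, Cyp2d22 0.0608, Cyp4f14 0.0512 and Cyp2j5 0.0498. Cyp4f14 is a leukotriene hydroxylase, and Cyp2j5 is an epoxygenase best known from the kidney. Below them were Cyp2c66 at 0.0390 CP10K, Cyp2c40 at 0.0231, Cyp2w1, a P450 known from fetal gut and colon tumours, at 0.0224, Cyp2j13 at 0.0175 and Cyp2j9 at 0.0159. Several of these lie close in level. Just inside the minimum lay Cyp2c55 (0.0131 CP10K) and Cyp2c67 (0.0102), and just outside it Cyp2r1, the vitamin D 25-hydroxylase (0.00873), the PPAR alpha target Cyp4a10 (0.00686) and Cyp4f17 (0.00643).

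**Figure D1:**
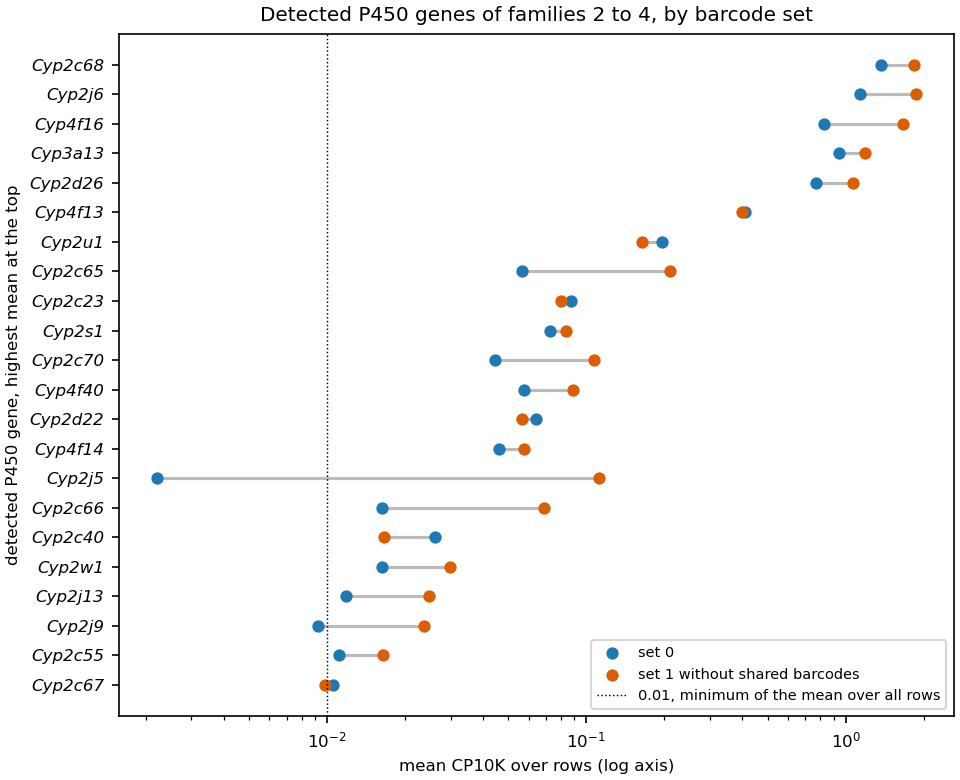
Mean CP10K (log axis) of the 22 detected P450 genes over the rows of set 0 and of set 1, ordered by the mean over all rows, with a dotted line at 0.01. Cyp2j5 shows the widest gap between the sets (0.00221 and 0.112), and Cyp4f13 the narrowest of the 10 highest genes (0.408 and 0.397).

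The other 22 members were at 0.00873 CP10K or lower, and 0 of them were at exactly 0. Of these 22, 13 had under 30 UMIs among the 303757922 of the whole table. They include well-known liver genes: Cyp2e1, which oxidises ethanol, averaged 0.000576 CP10K, Cyp2c29 0.000230 and Cyp3a25 0.000751. Cyp2f2, typical of lung club cells, averaged 0.00248 CP10K, and Cyp4a31 was lowest at 5.19e-05 CP10K from 1.67 UMIs. By subfamily, 8 of 11 Cyp2c, 4 of 5 Cyp2j, 2 of 5 Cyp2d, 4 of 8 Cyp4f and 1 of 3 Cyp3a columns were detected, against 0 of 2 Cyp4a columns.

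Several members are near-identical copies, and their tags can be split between genes. Of the 31-base words in the last 500 bases of its transcript, Cyp2c40 shared 84% with other genes, Cyp2c68 68.1%, Cyp2c67 65.7%, Cyp2c66 39.4% and Cyp2d26 35.1%. Only 20.4% of the Cyp2c40 values and 54% of those of Cyp2c67 were whole UMIs within 0.01, against 94% for Cyp2c68. Cyp2d22 had 75.5% whole values with 0% of words shared. Levels of Cyp2c40 and Cyp2c67 are therefore uncertain, and tags of Cyp2c68 and these neighbours cannot be fully told apart. Cyp4f16, Cyp2c65 and Cyp2c66 had at least 99.2% whole values.

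Many of the detected genes sit in 3 clusters of the mouse genome (GRCm38). Cyp2c55, Cyp2c65, Cyp2c66, Cyp2c67, Cyp2c68, Cyp2c40 and Cyp2c70 lie on chromosome 19 between 39007019 and 40187333, with the undetected Cyp2c29, Cyp2c38 and Cyp2c69 among them. Cyp2j13, Cyp2j6, Cyp2j9 and Cyp2j5 lie on chromosome 4 between 96027534 and 96664154, with the undetected Cyp2j8 next to Cyp2j6. Cyp4f16, Cyp4f40, Cyp4f14 and Cyp4f13 lie on chromosome 17 between 32536558 and 32947402, with the undetected Cyp4f37 between Cyp4f16 and Cyp4f40. The others lie apart from these: Cyp2d22 and Cyp2d26 on chromosome 15, Cyp2u1 on 3, Cyp3a13 and Cyp2w1 on 5, Cyp2s1 on 7, and Cyp2c23 on 19 at 44005022, outside the Cyp2c cluster. Detected and undetected genes thus lie side by side within each of the 3 clusters. On chromosome 15 the undetected Cyp2d9, Cyp2d34 and Cyp2d40 likewise lie between Cyp2d22 and Cyp2d26.

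Promoter letters are shown for Cyp2c genes that differ in level and in their course over the row groups (Cyp2c65, Cyp2c66, Cyp2c70 and the abundant Cyp2c68) and for Cyp2j5 and Cyp2j6, neighbours in 1 cluster with unlike levels. Each is the 250 bases before the start of transcription, 5' to 3' on the strand of the gene, from RefSeq (GRCm38.p6), and 19 of the 22 detected members had an entry. The windows are chr19:39060756-39061005 (+ strand), chr19:39113648-39113897 (+ strand), chr19:40187287-40187536 (- strand), chr19:39741102-39741351 (- strand), chr4:96664120-96664369 (- strand) and chr4:96553652-96553901 (- strand), in the order below. Capitals mark matches to the motif letters searched, on either strand: CAAAGTCCA in Cyp2c65, Cyp2c70 and Cyp2c68, CACGC (the other strand of GCGTG) in Cyp2c68, and CATAAA (the other strand of TTTATG) in Cyp2j5.
Cyp2c65: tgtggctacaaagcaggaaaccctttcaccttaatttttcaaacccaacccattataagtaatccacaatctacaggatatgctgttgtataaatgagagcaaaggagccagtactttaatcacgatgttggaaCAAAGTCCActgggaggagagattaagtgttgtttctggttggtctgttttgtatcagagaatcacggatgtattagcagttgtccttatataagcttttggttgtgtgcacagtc
Cyp2c66: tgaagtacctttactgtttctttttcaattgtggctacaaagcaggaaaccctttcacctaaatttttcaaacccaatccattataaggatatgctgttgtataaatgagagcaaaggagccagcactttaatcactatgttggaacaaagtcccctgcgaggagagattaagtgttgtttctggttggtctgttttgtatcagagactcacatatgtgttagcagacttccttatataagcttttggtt
Cyp2c70: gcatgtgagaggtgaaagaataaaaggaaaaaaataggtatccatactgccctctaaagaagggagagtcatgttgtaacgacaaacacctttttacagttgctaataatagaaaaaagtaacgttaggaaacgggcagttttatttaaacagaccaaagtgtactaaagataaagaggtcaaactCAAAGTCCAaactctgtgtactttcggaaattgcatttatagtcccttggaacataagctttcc
Cyp2c68: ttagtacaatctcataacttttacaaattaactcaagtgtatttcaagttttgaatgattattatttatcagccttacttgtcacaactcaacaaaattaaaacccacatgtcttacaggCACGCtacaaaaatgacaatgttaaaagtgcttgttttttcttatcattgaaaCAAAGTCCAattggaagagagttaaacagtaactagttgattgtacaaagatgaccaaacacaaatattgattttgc
Cyp2j5: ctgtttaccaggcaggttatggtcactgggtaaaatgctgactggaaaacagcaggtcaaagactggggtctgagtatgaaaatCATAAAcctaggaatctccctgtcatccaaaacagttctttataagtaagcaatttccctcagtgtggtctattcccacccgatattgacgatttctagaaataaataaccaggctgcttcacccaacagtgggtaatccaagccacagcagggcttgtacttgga
Cyp2j6: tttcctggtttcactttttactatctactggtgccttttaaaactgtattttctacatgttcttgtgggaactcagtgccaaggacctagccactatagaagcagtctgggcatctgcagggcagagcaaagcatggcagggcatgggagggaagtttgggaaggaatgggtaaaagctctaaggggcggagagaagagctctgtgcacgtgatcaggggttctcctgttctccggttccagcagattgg

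The letters CAAAGTCCA, a form bound by the enterocyte and liver factor HNF4, were found in 5 of the 19 members, against 0.384% of 32851 promoter windows of the same length. The 5 were Cyp2c40, Cyp2c65, Cyp2c67, Cyp2c68 and Cyp2c70, at 45 to 125 bases before the start. These genes are neighbours and copies of each other, so the matches are not independent. Cyp2c66, a close copy of Cyp2c65, holds the same letters with 1 substitution, A9C counted from the 5' base of CAAAGTCCA, at 104 bases before the start, and 7.05% of all windows hold the letters with at most 1 mismatch.

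The other motifs were common or lacking. GCGTG, the aryl hydrocarbon receptor core, was in 6 members (Cyp2c68, Cyp2j13, Cyp2j9, Cyp2w1, Cyp4f14 and Cyp4f16) against 28.2% of all windows. The CDX letters TTTATTG were in Cyp2c55 and Cyp4f40 (4.20% of all windows) and TTTATG in Cyp2j5 (10.8%). The direct repeat 1 of AGGTCA (0.0335% of all windows) and the direct repeat 3 of AGTTCA (0%) had 0 matches in members. Members were counted by gene, with a match in any of their windows, while the shares are by window. Cyp2j13, Cyp4f14 and Cyp4f40 had several windows each, and not all of those of Cyp4f14 matched. A match is a description of letters and not a binding site.

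Rows were grouped by Fabp1, a fatty acid carrier of enterocytes that rises with maturation and is highest in the proximal gut. Set 0 held 2094 rows below 40 CP10K, 485 of 40 to 100 and 3354 above 100, and set 1 held 1770, 564 and 2786. Median depth was 19960 and 19681 UMIs below 40, and 25625 and 24094 above 100, and the median mitochondrial share was 5.82% and 5.36% below 40 and 7.55% and 7.69% above 100. Fabp1 is itself 1 of the 7 enterocyte markers, and without it they summed to 150 and 136 CP10K below 40 and to 666 and 618 above 100. Markers of other cells were higher below 40. From below 40 to above 100, the 6 goblet markers went from 8.79 and 6.37 CP10K to 0.944 and 0.442, the cycling markers from 3.99 and 4.82 to 0.702 and 0.744, the enteroendocrine markers from 1.15 and 1.53 to 0.0967 and 0.0822, the stem cell markers from 0.749 and 0.342 to 0.0233 and 0.0085, and the Paneth markers from 1.04 and 1.08 to 0.0704 and 0.0374. The mesenchymal markers of set 1 went from 0.326 to 0.0124 CP10K. In set 0 the middle Fabp1 group was the richest in ileal markers, at 67.7 CP10K against 42.5 below 40 and 29.2 above 100. The part of depth and of these other cell types in the results below was not tested, except where rows were left out.

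The P450 signal was higher in rows rich in Fabp1. Ratios are log2 of group means with 0.001 CP10K added to each, which understates the ratio of low genes. Summed over the detected members, the mean level went from 4.29 over 5.90 to 7.40 CP10K across the Fabp1 groups of set 0, and from 5.67 over 9.31 to 11.3 in set 1. Of the 22 members, 9 were at least 2-fold higher above 100 than below 40 in both sets, against 3.66% of the 12554 genes with a mean of at least 0.01. In the other direction 1 member was at least 2-fold lower, against 13.4%. In set 0 alone 9 were higher, against 4.54%, and 3 lower, against 16.9%. The median log2 ratio of the detected members was 0.63 in set 0 and 0.70 in set 1, against −0.31 and −0.23 over all 12554 genes. When rows with goblet or enteroendocrine genes (Fcgbp or Chga above 5 CP10K) were left out, an alternative chosen after seeing the data, 9 members were higher, against 3.71%, and all 9 were among those called with all rows. Cyp2j5 and Cyp2c55 lay under 0.01 CP10K below 40 in both sets, so they passed the minimum through other rows. In set 0 the same held for Cyp2c66 (0.00542 CP10K below 40). Cyp2j13, the member that was lower, lay under 0.01 above 100 in set 0 (0.00630 CP10K), so there it too passed through other rows.

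Among the abundant genes the rise was steepest for Cyp2d26 and Cyp4f16. Cyp2d26 went from 0.276 over 0.466 to 1.12 CP10K across the 3 Fabp1 groups of set 0, and from 0.348 over 0.877 to 1.56 in set 1, a log2 ratio of 2.01 and 2.16 between the outer groups. Cyp4f16 went from 0.361 over 0.792 to 1.13 CP10K in set 0 and from 0.626 over 1.84 to 2.28 in set 1 (log2 1.64 and 1.86). The counting intervals of the outer groups did not overlap for either gene in either set. The other abundant genes moved less: Cyp2c68 (log2 0.70 and 0.72), Cyp2j6 (0.56 and 0.68) and Cyp3a13 (0.29 and 0.46) stayed under 2-fold. Cyp4f13 was at the edge, at 0.88 and 1.04.

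Of the Cyp2c genes, 5 rose with Fabp1 and were lower in level. Cyp2c65 went from 0.0152 over 0.0351 to 0.0858 CP10K in set 0, and from 0.0792 over 0.216 to 0.292 in set 1 (log2 2.42 and 1.87). Cyp2c66, its close copy, was lower in level, at 0.00542, 0.0217 and 0.0224 CP10K in set 0 and 0.0229, 0.0711 and 0.0975 in set 1 (log2 1.87 and 2.04). In set 0 its middle group thus lay near its top group. Cyp2c70 went from 0.0121 over 0.0318 to 0.0667 CP10K in set 0, and from 0.0403 over 0.101 to 0.150 in set 1 (log2 2.37 and 1.87). Cyp2c23 differed in that its middle group lay close to the lowest one: 0.0453, 0.0607 and 0.117 CP10K in set 0, and 0.0447, 0.0569 and 0.107 in set 1 (log2 1.35 and 1.24). In set 0 its rise lay mostly in rows with the ileal gene Fabp6 below 10 CP10K, as given further below. Cyp2c55 rose from 0.00451 to 0.0154 CP10K in set 0 and from 0.00858 to 0.0222 in set 1 (log2 1.58 and 1.28), on 28 and 34 UMIs in the low groups.

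Cyp2d22 and Cyp2j5 completed the set of members that rose. Cyp2d22, often taken as the mouse counterpart of human CYP2D6, had the largest ratio in set 0, from 0.0153 over 0.0315 to 0.0990 CP10K (log2 2.61), and in set 1 it went from 0.0156 over 0.0481 to 0.0838 (log2 2.35). Cyp2j5 had the largest in set 1, from 0.00558 over 0.0276 to 0.197 CP10K (log2 4.91). In set 0 it was almost lacking, at 3, 2 and 31 UMIs in the 3 groups, or 0.000628, 0.000631 and 0.00342 CP10K (log2 1.44). By summed UMIs these outer groups of set 0 stood at 0.000591 (0.000122 to 0.00173) and 0.00318 (0.00216 to 0.00452) Cyp2j5 UMIs per 10000, so the ratio in set 0 rests on few tags.

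**Figure D2:**
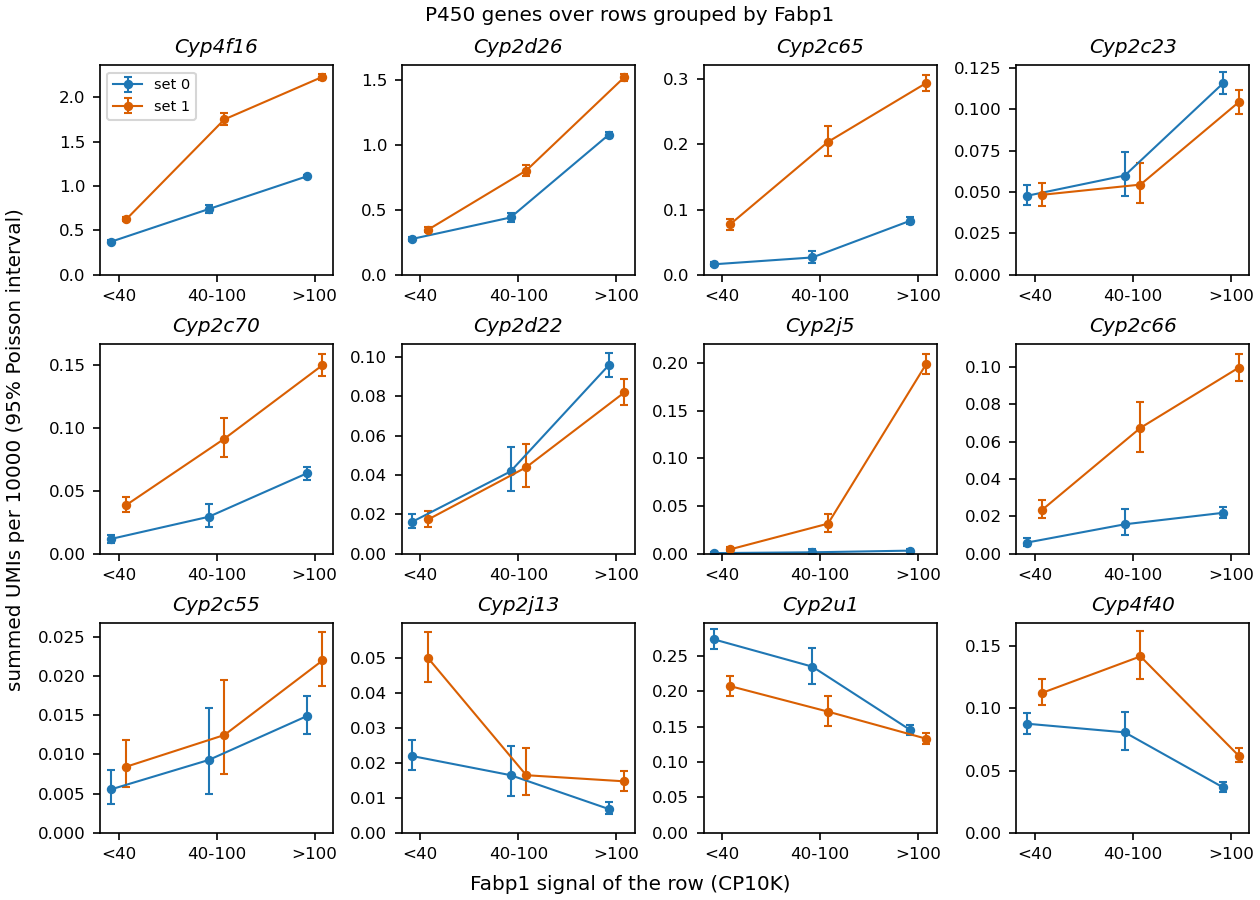
Summed UMIs per 10000, with exact Poisson 95% intervals, of the 10 called P450 genes and of Cyp2u1 and Cyp4f40 in rows with Fabp1 below 40, 40 to 100 and above 100 CP10K, for set 0 and set 1 (each panel has its own axis from 0). The 9 genes called higher climb from the lowest to the top group, with Cyp2j5 at 0.00318 in set 0 and 0.199 in set 1 in the top group, and Cyp2j13, Cyp2u1 and Cyp4f40 are lower in the top group than in the lowest.

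The opposite course was seen for Cyp2j13. It went from 0.0202 over 0.0142 to 0.00630 CP10K in set 0, and from 0.0446 over 0.0152 to 0.0140 in set 1, a log2 ratio of −1.54 and −1.60. Members that were lower in rows above 100 in both sets without reaching 2-fold in both were Cyp4f40 (log2 −1.27 and −0.92), Cyp2w1 (−1.07 and −0.61), Cyp2u1 (−0.94 and −0.61), Cyp2s1 (−0.83 and −0.63), Cyp2c40 (−0.47 and −0.57) and Cyp2c67 (−0.14 and −0.57). Cyp2u1, for example, averaged 0.274 CP10K below 40 and 0.142 above 100 in set 0, and 0.208 and 0.135 in set 1. Cyp2j13 and Cyp2j5, of the same cluster, thus went in opposite directions. With totals taken without mitochondrial, ribosomal protein and haemoglobin genes, 2 members were lower in place of 1 (Cyp4f40 joined Cyp2j13), against 16.9% of all genes, and the median ratio of all genes shifted by −0.15 in set 0 and −0.13 in set 1.

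Of the members with CAAAGTCCA in the promoter window, Cyp2c65 and Cyp2c70 rose past 2-fold, while Cyp2c68 (log2 0.70 and 0.72), Cyp2c40 (−0.47 and −0.57) and Cyp2c67 (−0.14 and −0.57) did not. Cyp2c66, whose window holds 1 substitution, rose too.

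**Figure D3:**
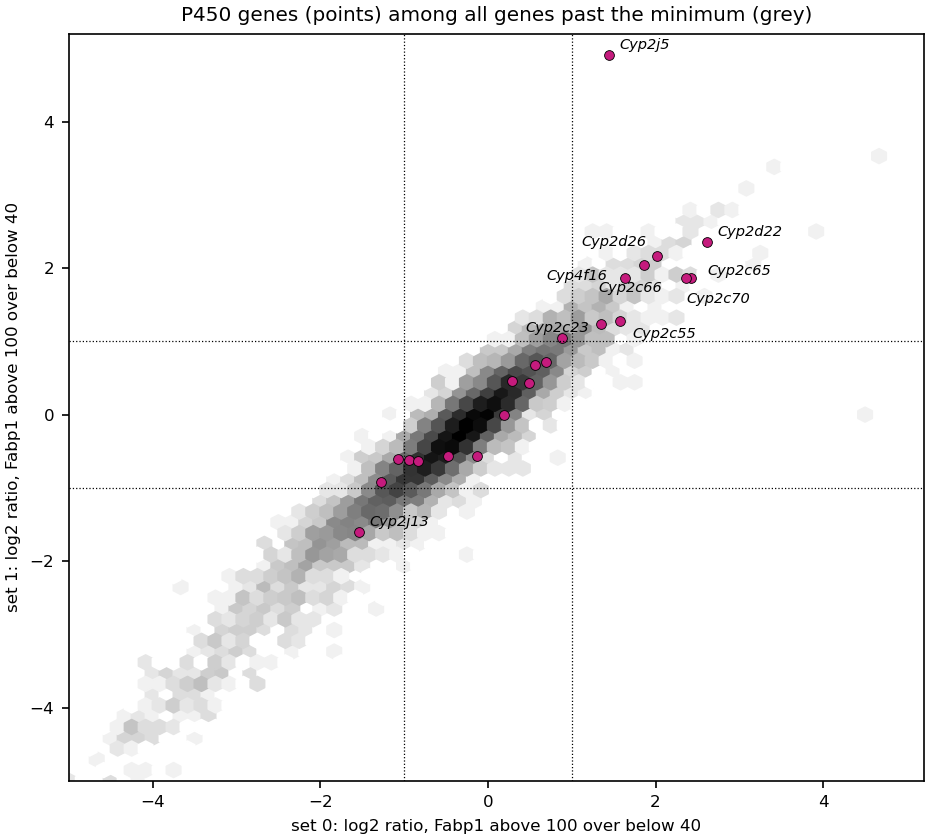
Log2 ratio of rows with Fabp1 above 100 over rows below 40, set 0 against set 1, for the 22 detected P450 genes (points) and the 12554 genes with a mean of at least 0.01 (grey, darker for more genes on a log scale, values beyond 5 drawn at 5). Dotted lines mark 2-fold, and 9 P450 genes lie beyond it at the upper right, with Cyp2j13 at the lower left and Cyp2j5 apart at 1.44 and 4.91.

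Rows were also grouped by Fabp6, the ileal bile acid binding protein. Rows above 50 CP10K made up 18.7% of set 0 (1108 rows) and 0.527% of set 1 (27 rows), and rows of 10 to 50 made up 12.1% and 4.49%. The share of set 1 turns on the cells left out: of its 818 cells with shared barcodes 179 were above 50 (21.9%), and with them the share is 3.47% (206 of 5938 rows). Since the 27 rows of set 1 hold 643074 UMIs in all, and all of them have Fabp1 above 100, the values of set 0 are given first. Fabp6 is 1 of the 4 ileal markers, and the other ileal markers summed to 7.37 CP10K below 10 and 15.5 above 50 in set 0. The cycling markers summed to 2.43 and 0.643, the stem cell markers to 0.398 and 0.0195, the enteroendocrine markers to 0.631 and 0.127, and the goblet markers to 4.35 and 2.31. The 7 hepatocyte columns summed to 10.8 and 33.2 CP10K, with Alb and Hamp under 0.01 in both. The part of these other markers was not tested.

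In set 0, P450 levels were mostly lower in rows rich in Fabp6. The summed level of the detected members was 6.77, 5.26 and 4.60 CP10K in rows with Fabp6 below 10, 10 to 50 and above 50. Of the 22 members, 10 were at least 2-fold lower above 50 than below 10, against 8.93% of the 12554 genes, and 2 were at least 2-fold higher, against 4.08%. Of the 10, 5 lay under 0.01 CP10K above 50 (Cyp2c65, Cyp2c66, Cyp2j5, Cyp2j9 and Cyp2c55), as Cyp2j13 of the 2 did below 10, so these passed the minimum through other rows. The median log2 ratio was −0.80 for the detected members and 0.03 over all genes.

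The deepest losses were those of Cyp2c65, Cyp2c66, Cyp2j9 and Cyp2c55. Cyp2c65 went from 0.0792 over 0.00920 to 0.00430 CP10K across the 3 Fabp6 groups of set 0, a log2 ratio of −3.92. Cyp2c66 went from 0.0231 over 0.00231 to 0.000660 CP10K (log2 −3.86), on 254, 8 and 3 UMIs. Cyp2j9 and Cyp2c55 each had a log2 ratio of −2.90, on 4 and 8 UMIs in the rows above 50. Among the abundant members, Cyp2d26 went from 0.973 over 0.391 to 0.239 CP10K (log2 −2.02), and Cyp4f16 from 0.996 over 0.519 to 0.413 (log2 −1.27). Cyp4f40 (log2 −2.12), Cyp2c70 (−1.54), Cyp2j5 (−1.50, on 2 UMIs above 50) and Cyp4f14 (−1.18) were the other members that fell.

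Cyp2j13 and Cyp2u1 were the members that were higher with Fabp6 in set 0. Cyp2j13 went from 0.00466 over 0.0255 to 0.0298 CP10K (log2 2.44), and Cyp2u1 from 0.150 over 0.284 to 0.313 (log2 1.06). Cyp3a13 (log2 0.21), Cyp4f13 (0.08), Cyp2c23 (0.06) and Cyp2s1 (0.21) were near level between the outer groups, taken over all Fabp1 levels. The Cyp2c cluster was thus not low as a whole: Cyp2c68 was at 1.48 CP10K below 10 and 1.10 above 50 (log2 −0.42).

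With both sets required, 7 members were at least 2-fold lower, against 6.60% of all genes, and 0 were higher, against 1.48%. They were Cyp2d26, Cyp2c70, Cyp4f40, Cyp4f14, Cyp2j5, Cyp2c66 and Cyp2c55. Cyp2d26 is the best measured of them in set 1, at 0.295 CP10K from 19.5 UMIs in the 27 rows above 50 and 1.10 below 10 (log2 −1.89). Cyp4f40, Cyp4f14 and Cyp2c55 had 0 UMIs in those 27 rows, which allows up to 0.0467 UMIs per 10000. Below 10 they stood at 0.0897, 0.0627 and 0.0170 UMIs per 10000, so these rows cannot show a 2-fold loss of any of the 3. Cyp2c70, Cyp2j5 and Cyp2c66 averaged 0.0226, 0.031 and 0.0143 CP10K in the 27 rows, with Cyp2c70 found in 7.41% of them, so their set 1 ratios rest on few tags. Apart from Cyp2d26, the count in both sets thus adds little to that of set 0. In the 230 rows of set 1 with Fabp6 of 10 to 50, Cyp2d26 averaged 0.493 CP10K, Cyp2c66 0.0270, Cyp4f40 0.0442 and Cyp2j13 0.0743, against 1.10, 0.0711, 0.0911 and 0.0225 below 10.

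With the cells of shared barcodes kept in set 1, which gives 206 rows above 50, 9 members were lower in both sets, against 6.03% of all genes, and 0 were higher, against 2.33%. Of the 9, 6 were among the 7, and Cyp4f14 (log2 −0.89 in set 1) was no longer called. This count was chosen after seeing the data.

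The comparison was repeated at each Fabp1 level of set 0. Within rows of Fabp1 above 100 (445 rows with Fabp6 above 50, a level added after seeing the data), 10 members were at least 2-fold lower, against 3.84% of all genes, and 2 were higher, against 3.93%. Cyp2d26 averaged 1.35 CP10K below 10 and 0.317 above 50 there, and Cyp4f16 1.30 and 0.514. Within rows of Fabp1 40 to 100, 11 members were lower, against 13.2%, and 1 was higher, against 13.8%. Within rows below 40, 7 were lower, against 16.6%, and 3 higher (Cyp2c23, Cyp2d22 and Cyp2j13), against 10.8%. Cyp2j13 was among the higher members at each level. Cyp2c23 of set 0 stood at log2 −1.86, −0.94 and 0.54 over its mean of both sets in the 3 Fabp1 groups with Fabp6 below 10. With Fabp6 above 50 it stood at 0.10, −0.15 and 0.17. Not all members that rose with Fabp1 did so: from the lowest to the top Fabp1 group, Cyp2c70 went from −2.24 to 0.07 and from −3.27 to −1.03. In both sets, taking Fabp6 of 10 to 50 over below 10 within Fabp1 above 100 (also chosen after seeing the data), 5 members were lower, against 0.996%, and 1 was higher, against 0.956%. There Cyp2d26 averaged 1.35 CP10K below 10 and 0.480 at 10 to 50 in set 0, and 1.65 and 0.537 in set 1. The Cyp2j5 ratio changed sign in set 0, to 0.46 within Fabp1 40 to 100 and 0.11 within Fabp1 below 40, on 2 UMIs or fewer.

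**Figure D4:**
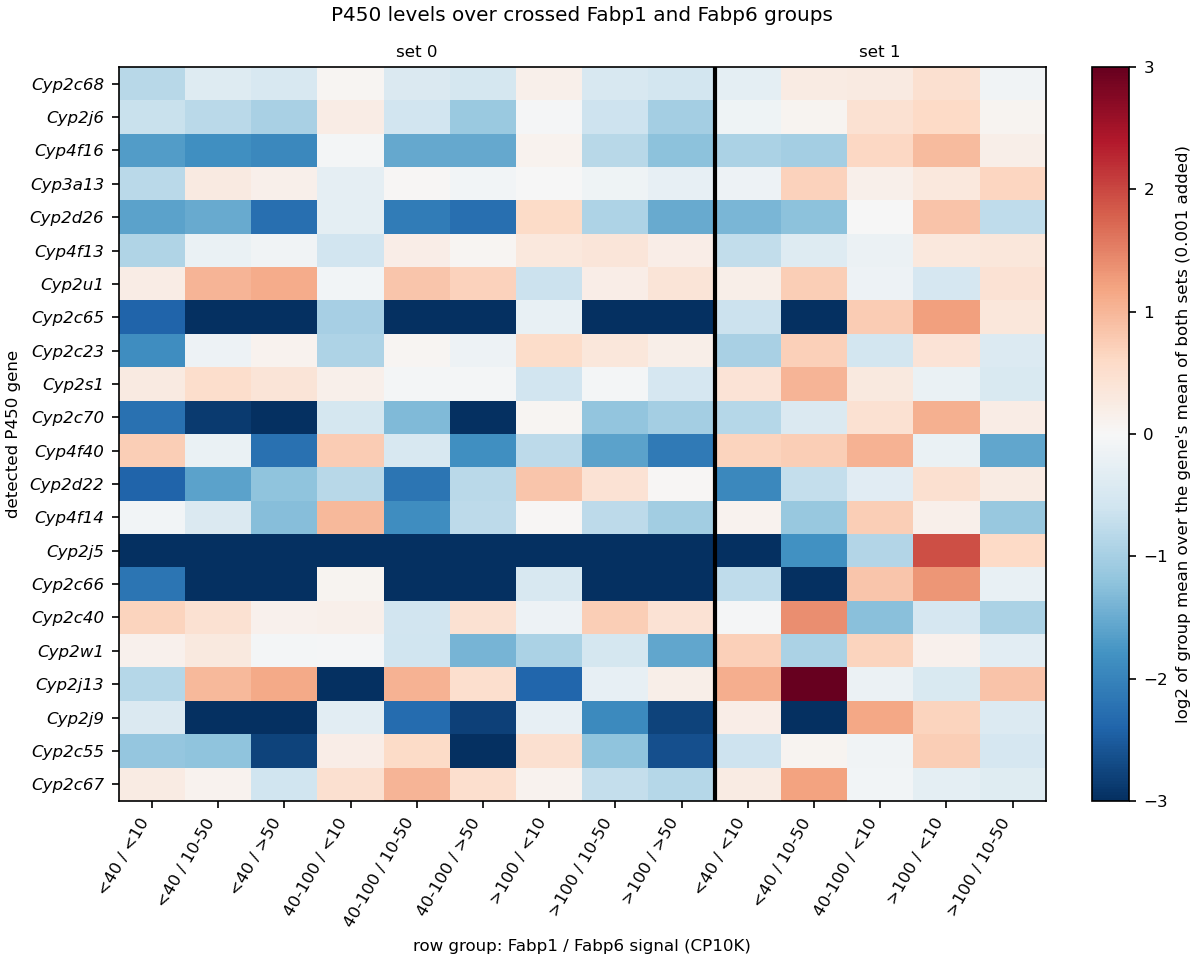
Log2 of each detected P450 gene's mean CP10K in rows grouped by Fabp1 and Fabp6 together over its mean over the rows of both sets (0.001 added to both, colour limited at 3), for the 9 groups of set 0 and the 5 of set 1 with at least 40 rows. Cyp2d26 peaks where Fabp1 is above 100 and Fabp6 below 10 (0.57 in set 0, 0.86 in set 1), and Cyp2j5 lies below its mean in all 9 groups of set 0 (−5.76 to −3.29) and above it in set 1 where Fabp1 is above 100 (1.94 and 0.59).

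Dividing cells were marked by the transcripts Mki67 and Top2a. Their sum was above 0 in 18.4% of set 0 and 19.0% of set 1, with a median depth of 25055 and 22983 UMIs against 23486 and 22232 in the other rows. The summed level of the detected members was 6.56 CP10K without and 4.49 with these transcripts in set 0, and 9.88 and 6.09 in set 1. Markers of cell types moved with this split as well. The enterocyte markers summed to 711 CP10K without and 240 with these transcripts in set 0 (626 and 225 in set 1), the goblet markers to 3.18 and 6.31 (1.89 and 5.13), the stem cell markers to 0.0781 and 1.19 (0.0455 and 0.465) and the Paneth markers to 0.227 and 1.23 (0.164 and 1.40). The enteroendocrine markers went the other way, at 0.556 and 0.103 CP10K (0.742 and 0.188 in set 1), and in set 1 the mesenchymal markers stood at 0.0170 and 0.562. Their part was not tested. At least 2-fold higher in rows without Mki67 and Top2a in both sets were 4 members, against 3.87% of all genes, and 0 were at least 2-fold lower, against 8.71%. Of the 4, Cyp2j13 lay under 0.01 CP10K in rows with these transcripts in both sets, and Cyp2j5 did so in set 0. There they passed the minimum through other rows. In set 0 alone 4 were higher, against 6.65%, and 1 was lower, against 12.9%.

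Cyp2c23 averaged 0.0975 CP10K without and 0.0403 with cycling transcripts in set 0, and 0.0901 and 0.0367 in set 1 (log2 1.25 and 1.27). Cyp2d22 averaged 0.0730 and 0.0240 CP10K in set 0, and 0.0626 and 0.0294 in set 1 (log2 1.56 and 1.06). Cyp2j13 was lower with cycling transcripts too, at 0.0137 and 0.00372 CP10K in set 0 and 0.0283 and 0.00941 in set 1 (log2 1.64 and 1.49). So Cyp2j13 was low both in rows rich in Fabp1 and in cycling rows. Cyp2j5 was the remaining gene, at 0.129 and 0.0400 CP10K in set 1 (log2 1.66) and 32 and 4 UMIs in set 0 (log2 1.05). Cyp4f40 went the other way in set 0, at 0.0443 CP10K without and 0.118 with these transcripts (log2 −1.39), and by less in set 1 (0.0806 and 0.122, log2 −0.60). These counts moved with the split: 8 members were higher when cells were thinned before it, against 6.75% of all genes, and 2 with summed UMIs, against 3.03%.

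The sets differed in P450 level, mostly toward set 1. Over all rows, 5 members were at least 2-fold higher in set 1, against 1.55% of all genes, and 0 in set 0, against 2.04%. They were Cyp2j5, Cyp2c66, Cyp2c65, Cyp2j9 and Cyp2c70. Cyp2j5 (0.00221 and 0.112 CP10K) and Cyp2j9 (0.00921 and 0.0237) lay under 0.01 in set 0 and passed the minimum only through set 1, so they had to stand on that side. Members above their set 1 level in set 0 were 6 of 22, against 40.2% of all genes, and 16 were below it. The median log2 ratio of set 0 over set 1 was −0.50 for the members and −0.06 over all genes. Which set is Control is not known here, and with 1 library each a difference between libraries and one between genotypes cannot be told apart. The sets also differed in their share of rows with Fabp6 above 50, and in Col3a1, a mesenchymal gene (0.00176 and 0.0539 CP10K), and Ctrb1, a pancreatic protease gene (0.170 and 0.766), and their part was not tested.

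Rows of like Fabp1 and Fabp6 were then compared. With Fabp6 below 10, 5 members were at least 2-fold higher in set 1 where Fabp1 was below 40, against 1.93% of all genes, 4 where it was 40 to 100, against 4.17%, and 6 where it was above 100, against 2.26%. Higher in set 0 were 0, 1 and 0 members, against 1.41%, 2.32% and 2.03%. With Fabp1 above 100 and Fabp6 of 10 to 50, 7 were higher in set 1, against 3.78%, and 1 in set 0, against 5.45%. In rows with Fabp6 below 10, 3 members were at least 2-fold higher in set 1 in each of the 3 Fabp1 groups, against 0.645% of all genes, and 0 in set 0, against 0.51%. This count was chosen after seeing the data. The 3 were Cyp2j5, Cyp2c65 and Cyp2j13, and Cyp2j13 was not among the 5 over all rows. Cyp2j5 and Cyp2j13 lay under 0.01 CP10K in all 3 groups of set 0, so they passed the minimum through other rows. Cyp2j5 stood at 0.000696, 0 and 0.00451 CP10K in set 0 and at 0.00538, 0.0285 and 0.206 in set 1. In the lowest group it was thus under 0.01 in both sets. Cyp2c65 stood at 0.0232, 0.0639 and 0.110 CP10K in the 3 groups of set 0 and at 0.0810, 0.217 and 0.303 in set 1 (log2 −1.76, −1.75 and −1.46). Cyp2j13 stood at 0.00948, 0 and 0.00262 CP10K in set 0 and 0.0390, 0.0157 and 0.0128 in set 1. Its 0 in the middle group, like that of Cyp2j5, is 0 UMIs in 243 rows, which allows up to 0.00463 UMIs per 10000. Cyp2c66 reached 2-fold in the lowest and the highest group (log2 −1.42 and −1.79) and not in the middle one (−0.75).

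Cyp2j5 was found mostly in set 1. Over all rows it averaged 0.00221 CP10K in set 0 (36 UMIs) and 0.112 in set 1 (1530 UMIs), a log2 ratio of −5.14. In rows with Fabp1 above 100 and Fabp6 below 10 it averaged 0.00451 CP10K in set 0 (31 UMIs in 2546 rows) and 0.206 in set 1 (1414 UMIs in 2588 rows). That log2 ratio of −5.23 was the lowest of the 12554 genes. In cells thinned to 8000 UMIs, 0.236% of these rows held a Cyp2j5 UMI in set 0 (6 of 2543, exact 95% interval 0.0866 to 0.513) and 11.7% in set 1 (302 of 2580, 10.5 to 13). In the rows of set 1 with Fabp1 and Fabp6 both in their lowest range, 0.47% did (8 of 1701, 0.203 to 0.925), and before thinning the 2 shares of set 1 were 23.8% and 0.925%, at median depths of 23921 and 19744 UMIs. Cyp2j6, of the same cluster, averaged 1.14 and 1.86 CP10K over all rows of the sets. Cyp2j5 shared 0.851% of its 31-base end words with other genes.

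**Figure D5:**
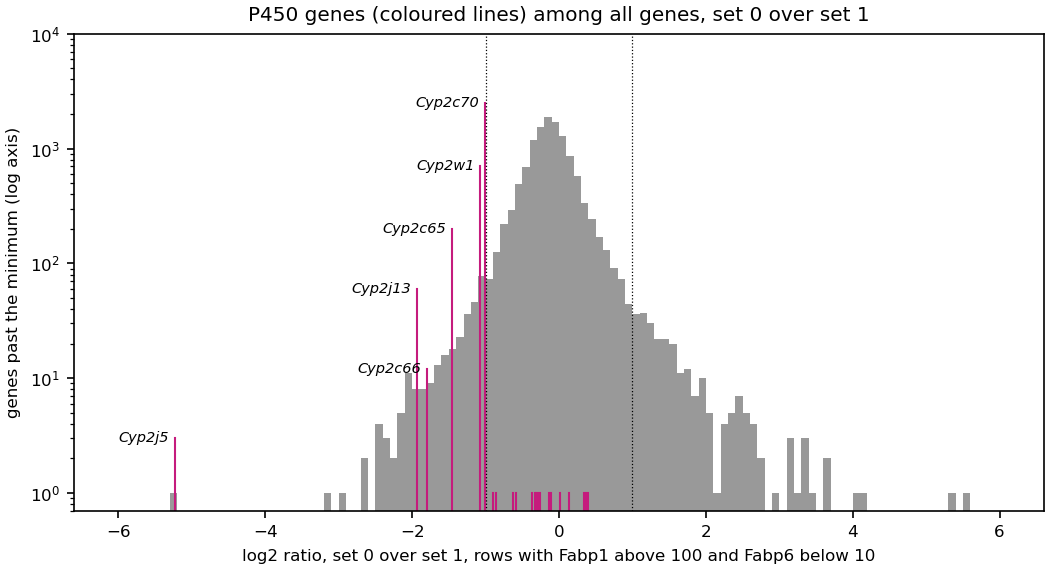
Histogram (log axis) of the log2 ratio of set 0 over set 1 for 12554 genes in rows with Fabp1 above 100 and Fabp6 below 10. Coloured lines mark the 22 detected P450 genes, their height serves the labels only, dotted lines mark 2-fold, and Cyp2j5 lies alone at −5.23 with 5 others beyond 2-fold on the same side.

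The partners of the P450 enzymes and their regulators were read from lists, chosen with earlier results of these data known. Of 17 genes for electron supply and haem, 2 were at least 2-fold higher with Fabp1 in both sets, Pgrmc2 (log2 1.49 and 1.57) and the cytochrome b5 reductase Cyb5r3 (1.16 and 1.41), against 3.66% of all genes, and Cyb5r1 was lower (−1.75 and −1.47), against 13.4%. Their median was −0.09 in set 0 and 0.11 in set 1. Por, the P450 reductase itself, averaged 0.646 CP10K in set 0 and 0.900 in set 1, and Cyb5a 3.21 and 4.21. Of the 17, 0 differed 2-fold between the sets over all rows, where 2.04% and 1.55% of all genes did.

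Of 16 regulators with a mean of at least 0.01, Creb3l3 (log2 1.66 and 1.82) and Nr0b2 (1.64 and 1.58) were higher with Fabp1, and 0 were lower, against the same 3.66% and 13.4%. The counts of these short lists are descriptions, and nothing is read from them. Hnf4a averaged 1.01 CP10K in set 0 and 0.950 in set 1, the xenobiotic receptors Nr1i2 0.376 and 0.379 and Nr1i3 0.674 and 0.744, and the aryl hydrocarbon receptor Ahr 0.0683 and 0.0840. Vdr, the vitamin D receptor, was higher in rows above 50 for Fabp6 (0.144 against 0.0374 CP10K in set 0, and 0.0610 against 0.0108 in set 1). In set 1 the value above 50 comes from 27 rows, here and for Nr0b2 below. Vdr was also higher in set 0 than in set 1 over all rows (0.0624 and 0.0119 CP10K, log2 2.30), as was Nr0b2 (0.374 and 0.132, log2 1.50). Nr0b2 was also higher in rows above 50 for Fabp6, at 0.530 against 0.320 CP10K in set 0 and 0.319 against 0.128 in set 1. The sets differ in their share of such rows, and the part of this was not tested.

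Other targets of these receptors were read in the same way. Of 14 PPAR alpha targets, Cd36 (log2 3.94 and 4.06) and Ehhadh (1.43 and 1.55) were higher with Fabp1 and Angptl4 was lower (−2.51 and −2.10). With Fabp6, Angptl4 (log2 −2.12 in set 0) and Pdk4 (−1.73) were lower, both at 0 in the 27 rows of set 1, and 0 of the 14 were higher. Of 4 aryl hydrocarbon receptor targets past the minimum, 0 reached 2-fold with Fabp1, and Nqo1 was lower with Fabp6 (−1.22 and −1.63). Of 22 genes of conjugation and export, the epoxide hydrolase Ephx2, which acts on the products of P450 epoxygenases, was higher with Fabp1 (log2 2.01 and 2.13), as was Fmo5 (1.94 and 1.73). In the other direction 3 were lower, among them Ces1f (log2 −2.11 and −2.96), which lay under 0.01 CP10K above 100 in both sets. The bile acid and drug pumps Abcc2 (log2 1.91 and 1.64) and Abcb1a (1.48 and 1.50) were higher with Fabp6, and the carboxylesterase Ces2a (−1.01 and −1.57) was lower. Each set 1 ratio with Fabp6, that of Nqo1 included, rests on the 27 rows above 50. Over all genes 3.66% were higher and 13.4% lower with Fabp1, and 1.48% were higher and 6.6% lower with Fabp6. Nothing is read from the counts of these lists.

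Of the 10 columns of other P450 families, 4 had a mean of at least 0.01. Cyp51, of sterol synthesis, averaged 1.07 CP10K, with log2 ratios of −1.02 and −0.67 with Fabp1. Cyp11a1, the side-chain cleavage enzyme of steroid synthesis, was lower with Fabp1 (log2 −1.43 and −2.08) and higher with Fabp6 (2.47 in set 0 and 1.21 in the 27 rows of set 1). The median log2 ratio of these 4 with Fabp1 was −0.98 in set 0 and −0.74 in set 1.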

How the data were processed

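Cells of 1 Control and 1 Tet3 knockout library were read in 1 deposited table, with cells in rows and genes in columns. Per the submitters' processing notes the tools were Salmon 0.14.1, alevin and Scanpy 1.6.0 with GRCm38 (mm10), and their roles and order are not given there. Values in the deposited table are a scaled signal: from the values, the authors brought each cell to a total of 10000. No label ties a barcode ending to a genotype. No column of per-sample values was left unused, and how doublets were treated is not given in the sources used here.

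UMIs were recovered by taking each cell's most frequent value above 0 as 1 UMI, and a median of 94.9% of values per cell (lowest 84.3%) came out whole within 0.01. Group means were compared as log2 ratios with 0.001 added. A gene counted as called when at least 2-fold different in the same direction in both sets, among 12554 genes with a mean of at least 0.01, and no test was run, since each group has 1 library. Intervals are exact Poisson (UMIs) or Clopper-Pearson (shares) at 95%, the limit at 0 is 3 counts, and both cover counting error only. Shares were taken after thinning to 8000 UMIs, which left out 34 cells of set 0 and 44 of set 1. Shared sequence was read from the last 500 bases of the longest coding transcript of each gene. Every detected member was named, with the members just inside and outside the minimum, and from each list up to 3 genes with the largest ratios. The members and lists were chosen with earlier results of these data known. The computation was checked on simulated data. Alternatives were other minimums, added constants, totals, cell filters, row groups, sets and fold limits. Python 3.11.15, numpy 2.4.6, scipy 1.17.1, pandas 2.3.3 and matplotlib 3.10.9 were used.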

Additional observations from a re-analysis of the deposited data

Results flagged for a closer look

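Cyp2j13 went opposite ways in the sets between rows with Fabp6 above 50 and below 10: the log2 ratio was 2.44 in set 0 and −1.44 in set 1, a gap of 3.88. The difference was not tested. The set 1 value rests on 27 rows with 1 Cyp2j13 UMI. In the 230 rows of set 1 with Fabp6 of 10 to 50, Cyp2j13 averaged 0.0743 CP10K, above its 0.0225 below 10, the same direction as in set 0 (0.0255 and 0.00466). With the cells of shared barcodes kept, which gives 206 rows above 50, Cyp2j13 averaged 0.0212 CP10K both above 50 and below 10 in set 1.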

How the results depend on the processing

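Of the alternative counts of members, 92 stayed within 1.5 times the reported count and 27 did not. Of the ratios of single members 786 stayed, 224 moved and 2 reversed, by another rule. A ratio stayed when its log2 shift was no more than its gap between the sets, or a small fixed limit where that was larger. Ratios of set 0 over set 1 had the fixed limit only. The gap can be wide, as for Cyp2j13 with Fabp6 (3.88), so large shifts can count as stayed. Reversals were scored for called members only. Detected members went from 22 to 14 with a minimum of 0.05. With a minimum of 0.2, which leaves fewer members, higher with Fabp1 went from 9 to 2, lower with Fabp1 from 1 to 0, lower with Fabp6 from 7 to 1, and higher without cycling transcripts from 4 to 0. With 0.01 added in place of 0.001, lower with Fabp1 became 0 and higher without cycling transcripts 1. At 3-fold, lower with Fabp1 became 0, lower with Fabp6 4 and higher without cycling transcripts 0. Lower with Fabp1 was 2 with the other total, 3 in set 0 alone and 2 with sets pooled. Higher with Fabp6 was 2 in set 0 alone, 1 within Fabp1 40 to 100 of set 0, 3 within Fabp1 below 40 of set 0, 2 within Fabp1 above 100 of set 0, and 1 for Fabp6 10 to 50 within Fabp1 above 100. Lower with Fabp6 was 11 with sets pooled and 11 within Fabp1 40 to 100 of set 0. Higher without cycling transcripts was 2 with summed UMIs, 8 with cells thinned first and 9 with the split at 1, and lower was 1 in set 0 alone. The share of all genes was not taken for the minimum of 0.2, the added 0.01, 3-fold, pooled sets or the split at 1. Counts under these are descriptions, and nothing is read from them about the members. Between sets, members higher in set 0 went from 0 to 1 within Fabp1 40 to 100 with Fabp6 below 10 and to 1 within Fabp1 above 100 with Fabp6 10 to 50, and higher in set 1 from 5 to 3 when required in all 3 Fabp1 groups. The Cyp2j5 ratio with Fabp6 reversed to 0.46 and 0.11 within Fabp1 40 to 100 and below 40 of set 0. Other than through these constructions, the cause was not tested. Members under about 0.05 CP10K rest on few UMIs. No paired analysis was possible because each group has 1 library and no label ties cells to a library.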

Other observations

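Rows with a goblet gene (Fcgbp above 5 CP10K, 204 rows with a median of 16819 UMIs) also carried the leading P450 genes. Of these rows 122 were of set 0 and 45 of set 1, the others being cells of shared barcodes. They also carried enterocyte markers, which summed to 398 CP10K in set 0 and 213 in set 1, against 625 and 550 in all rows, so doublets or free RNA from enterocytes cannot be told apart from signal of their own. Cyp2c68 averaged 0.811 CP10K there against 1.37 in all rows of set 0, and 0.916 against 1.83 in set 1. Cyp2j6 averaged 0.807 against 1.14 and 0.889 against 1.86 (set 0 and set 1), Cyp4f16 0.489 against 0.829 and 0.903 against 1.66, and Cyp2d26 0.413 against 0.766 and 0.517 against 1.07. Cyp2u1 averaged 0.234 against 0.197 in set 0, on 95 UMIs, and 0.197 against 0.164 in set 1, on 9 UMIs. Free RNA was not measured apart from these values, and a limit on 1 gene is a range and not a cell type. Rows with the enteroendocrine gene Chga above 5 CP10K numbered 12 and held 166603 UMIs, too few for the lower members.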
